A study of Homo sapiens with 6 samples.

Results

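The genes described here encode mitochondrial ribosomal proteins, and they were measured in a pair of human lung adenocarcinoma cell lines that differ in invasiveness. A probe set was taken as a member where the platform annotation gave it exactly 1 gene symbol and that symbol was MRPL or MRPS followed by a number and at most 1 letter from A to C. This rule found 140 of the 54675 probe sets on the array, which belong to 75 of 19775 named genes. It used names and no measured value.

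The study hybridised total RNA to 6 one-colour Affymetrix arrays, 3 for each line. CL1-5 is labelled highly invasive and CL1-0 poorly invasive, and both descend from the parental line CL1. Cells of both lines were grown untreated in RPMI medium with fetal bovine serum and penicillin/streptomycin, and no genetic change or agent is labelled for either. The labels call the 3 arrays of a line biological repeats without saying more of their cultures, so p-values measure the spread between these repeats, and each group is 1 line, so the comparison is of these sublines and not of invasive and non-invasive tumours at large.

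The mitochondrial ribosome makes the few proteins encoded by mitochondrial DNA, which are core subunits of the respiratory chain and of ATP synthase. All of its proteins are encoded in the nucleus, made in the cytosol and imported. Some have counterparts in the bacterial ribosome and others are found only in mitochondrial ribosomes. Its large subunit holds the peptidyl transferase centre and the exit tunnel, and its small subunit holds the decoding site.

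The promoters of MRPS2, MRPL52 and MRPL40 are shown because sites for ETS factors, NRF1 and YY1 are known from promoters of many genes for mitochondrial proteins. Each sequence is the 150 bases before an annotated transcription start, 5′ to 3′, from RefSeq on build GRCh38.p14, and capitals mark a match to a motif searched for. MRPS2, the gene with the largest increase in CL1-5, has 2 annotated starts, with windows at chr9:135500532-135500681 and chr9:135499815-135499964 on the plus strand. MRPL52, with the second largest increase, lies at chr14:22829737-22829886 and MRPL40, with the largest decrease, at chr22:19432395-19432544, both on the plus strand.
MRPS2, first start: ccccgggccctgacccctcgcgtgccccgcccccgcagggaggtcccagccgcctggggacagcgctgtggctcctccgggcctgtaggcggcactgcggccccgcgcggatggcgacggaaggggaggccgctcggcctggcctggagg
MRPS2, second start: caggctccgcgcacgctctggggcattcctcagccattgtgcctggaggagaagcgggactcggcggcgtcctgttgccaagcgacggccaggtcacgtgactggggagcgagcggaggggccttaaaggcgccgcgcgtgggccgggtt
MRPL52: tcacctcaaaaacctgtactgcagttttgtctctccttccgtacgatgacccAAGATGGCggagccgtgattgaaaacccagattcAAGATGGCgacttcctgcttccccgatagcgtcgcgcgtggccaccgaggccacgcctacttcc
MRPL40: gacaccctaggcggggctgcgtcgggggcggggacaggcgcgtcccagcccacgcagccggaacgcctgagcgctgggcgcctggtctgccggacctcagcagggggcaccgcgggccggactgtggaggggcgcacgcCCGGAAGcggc
The MRPL52 stretch holds AAGATGGC, the YY1 motif, at 2 places. The MRPL40 stretch holds CCGGAAG, the core of the ETS motif, close to the start, and neither MRPS2 stretch holds any of the motifs. The same stretches of MRPS35 and MRPS17, the next largest decreases, are not printed and hold none of the motifs either.

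Motifs were then counted on both strands in the window from 250 bases before to 50 bases after the start of each gene, which could be matched for 67 of the 75 members and for 15842 protein-coding genes in all. No motif searched contains another. CCGGAAG stood in 29 of the 67 member promoters (43.3%), against 16.5% of all promoters. AAGATGGC stood in 20 (29.9%), against 4.66% of all promoters, and CGCANGCG, the centre of the NRF1 motif, in 15 (22.4%), against 16.6%. The TATA box letters TATAAA stood in 3 (4.48%), against 12.4%. Set out by the comparison of the lines, CCGGAAG stood in 3 of 9 promoters of members called higher in CL1-5, in 12 of 27 called lower and in 14 of 31 not called. AAGATGGC stood in 5 of 9, 8 of 27 and 7 of 31 of them in the same order. These are matches of letters, not sites shown to be bound.

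All 75 genes were measurable in the probe set signals, which the authors deposited on a linear scale. Of the 140 probe sets, 133 passed the filter on low values, which asked for a signal above the array's 40th percentile on at least 3 of the 6 arrays. The other 7 belong to MRPL20, MRPL39, MRPS11, MRPS18C and MRPS27, each of which kept another probe set. For each gene the passing probe set with the highest mean signal was used. Those with suffix x, which marks likely cross-hybridisation, were passed over where another passed. Every one of the 75 used exceeded the 40th percentile on all 6 arrays, the closest by 7.30-fold. The mean signal of a gene in a line lay between 169 and 3634, where the array medians lay between 30.2 and 30.9.

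Markers of the labelled cell type were read, without a verdict on the label. KRT18 and KRT8, the keratins of simple epithelia, had mean signals of 4222 ± 417 in CL1-5 and 46.5 ± 7.85 in CL1-0 for KRT18 and 555 ± 7.18 in CL1-5 and 49.4 ± 0.98 in CL1-0 for KRT8 (SD, n = 3 each). KRT19 lay at or under the 40th percentile on every array of both lines and EPCAM on every CL1-5 array. EPCAM averaged 10.3 ± 0.85 in CL1-5 and 29.3 ± 3.08 in CL1-0 and was called lower in CL1-5 (log2 fold change -1.07 ± 0.09, limma, adjusted p = 1.63e-05), and CDH1, with 35.2 ± 1.63 in CL1-5 and 41.9 ± 4.08 in CL1-0, and NAPSA, with 38.4 ± 5.58 in CL1-5 and 47.9 ± 8.09 in CL1-0, were not called. The mean signals of the 8 epithelial markers in CL1-0 lay between 10.3 and 99.0. Their sum was 4579 to 5423 in CL1-5, most of it KRT18, against 344 to 357 in CL1-0. That of 5 fibroblast markers was 82.8 to 90.6 in CL1-5 and 95.7 to 107.6 in CL1-0, that of 3 immune markers 44.9 to 51.5 in CL1-5 and 51.3 to 52.7 in CL1-0, and that of 3 endothelial markers 140.2 to 154.5 in CL1-5 and 67.7 to 85.5 in CL1-0. PECAM1, an endothelial and leukocyte surface protein, carried that last difference, with 115 ± 4.24 in CL1-5 and 49.8 ± 6.13 in CL1-0 (log2 fold change 1.11 ± 0.11, limma, adjusted p = 3.49e-05). Means of other defining markers were 7.93 ± 0.71 in CL1-5 and 9.91 ± 0.86 in CL1-0 for PTPRC (immune), 7.01 ± 0.85 in CL1-5 and 7.26 ± 0.31 in CL1-0 for LUM (fibroblast) and 8.41 ± 1.33 in CL1-5 and 7.55 ± 0.46 in CL1-0 for CDH5 (endothelial). Their part in the differences below was not tested, and in such bulk samples fewer cells of a kind and less RNA per cell cannot be told apart.

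Members moved together between repeats, in the same way in both lines. On the log2 scale, the median deviation of the 75 genes from their own line's mean was 0.11, 0.03 and -0.15 in repeats 1, 2 and 3 of CL1-5, and 0.16, 0.07 and -0.21 in repeats 1, 2 and 3 of CL1-0. In repeat 3, 64 of 75 members lay below the line mean in CL1-5 and 68 of 75 in CL1-0. The median of all 14828 genes tested stayed between -0.01 and 0.01 on every array. In repeat 3, 4 members lay above the line mean in both lines, MRPS31, MRPL2, MRPL9 and MRPS9, and the first 3 of them were brightest there in both. The signal of MRPS31 was 582, 523 and 951 in CL1-5 and 582, 527 and 876 in CL1-0. Across the 75 genes, the deviations of same-numbered arrays correlated at 0.83, 0.53 and 0.87 for repeats 1, 2 and 3, where the 3 deviations of a line sum to 0 and so depend on one another.

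**Figure D1:**
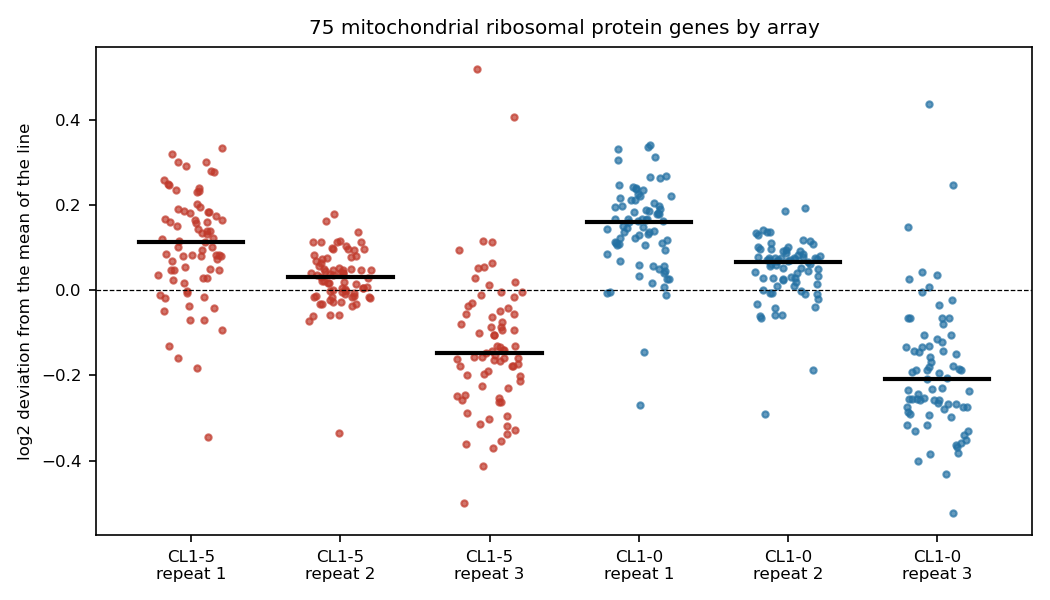
Each point is 1 of 75 mitochondrial ribosomal protein genes on 1 array, as its log2 deviation from the mean of the 3 arrays of its line, and the bars are the medians. The median lies below 0 in repeat 3 of both lines, at -0.15 in CL1-5 and -0.21 in CL1-0.

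A sign of RNA quality moved with that pattern. The log2 ratio of the 3′ to the 5′ control probe set of ACTB was 0.31, 0.40 and 0.91 in CL1-5 and 0.53, 0.44 and 1.17 in CL1-0, highest in repeat 3 of both lines, and its part was not tested. Between the lines the ratio averaged 0.54 ± 0.32 in CL1-5 and 0.71 ± 0.40 in CL1-0 (SD, n = 3 each; exact two-sided permutation test, p = 0.5, where the smallest p possible is 0.1). For GAPDH it averaged 0.08 ± 0.10 in CL1-5 and 0.16 ± 0.09 in CL1-0 (exact p = 0.4).

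The comparison of CL1-5 with CL1-0 asks how the expression of these genes differs between the highly and the poorly invasive line. More of the mitochondrial ribosomal protein genes were lower in CL1-5 than higher, with a few large exceptions in each direction. At an adjusted p under 0.05 (limma on log2(signal + 6.85), with Benjamini-Hochberg adjustment over all genes tested), 11 of 75 were higher in CL1-5, 29 were lower and 35 were not called. The 40 called members are 53.3% of the 75, against 51.6% of all genes tested, so their number is near the background. By direction, 14.7% of members were higher against 23.3% of all genes, and 38.7% were lower against 28.3% of all genes. Their median log2 fold change, CL1-5 over CL1-0, was -0.16, against -0.03 over all genes, and 45 of 75 (60%) lay below 0, against 53.4% of all genes. These shares of all genes depended on the filter, while all 75 members kept their calls. With the filter at the 60th percentile 27.7% of all genes were higher and 34.0% lower, with a median of -0.06. With no filter 17.8% were higher and 21.5% lower, with a median of -0.02. Against the stricter filter, a smaller share of members than of all genes was called, and the excess of lower members shrank.

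The differences were mostly of moderate size. The middle 50% of members lay between -0.56 and 0.10 on the log2 fold change scale, where the middle 50% of all genes lay between -0.37 and 0.26. Past 2-fold there were 8 members (10.7%, against 16.1% of all genes), 3 of them higher in CL1-5 and 5 lower, where 8.51% of all genes were called and at least 2-fold higher and 7.6% called and at least 2-fold lower. The arrays of the lines did not overlap for 39 members (12 higher and 27 lower in CL1-5), a pattern seen in 58.8% of all genes (26.6% higher and 32.2% lower).

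The number of calls depended on the repeats. With the repeat number as a block, which the shared deviations above bear on, 17 members were higher and 38 lower (28% and 34.7% of all genes, 62.7% in all). The block kept all 40 calls and added 6 higher (MRPL27, MRPL28, MRPL17, MRPS12, MRPL13 and MRPS34) and 9 lower (MRPL36, MRPL21, MRPS27, MRPS21, MRPS18C, MRPS11, MRPL16, MRPL48 and MRPL34). Within repeats 1, 2 and 3 taken one by one, the members' median log2 difference was -0.16, -0.20 and -0.10. A member was lower in CL1-5 in 3 of 3 repeats for 41 genes and higher in 3 of 3 for 21, where 41.3% and 34.3% of all genes were. Repeats 1 and 2 alone gave 17 higher and 37 lower, where 24% and 31.1% of all genes were. Leaving out 1 array gave 7 higher members without CL1-5 repeat 1 (20.3% of all genes), 5 without CL1-5 repeat 2 (18.6%) and 16 without CL1-5 repeat 3 (20.6%), and 19 lower members without CL1-0 repeat 2 (23.9%). The median was -0.24 without CL1-5 repeat 1, -0.08 without CL1-5 repeat 3, -0.054 without CL1-0 repeat 1 and -0.28 without CL1-0 repeat 3, below 0 each time.

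**Figure D2:**
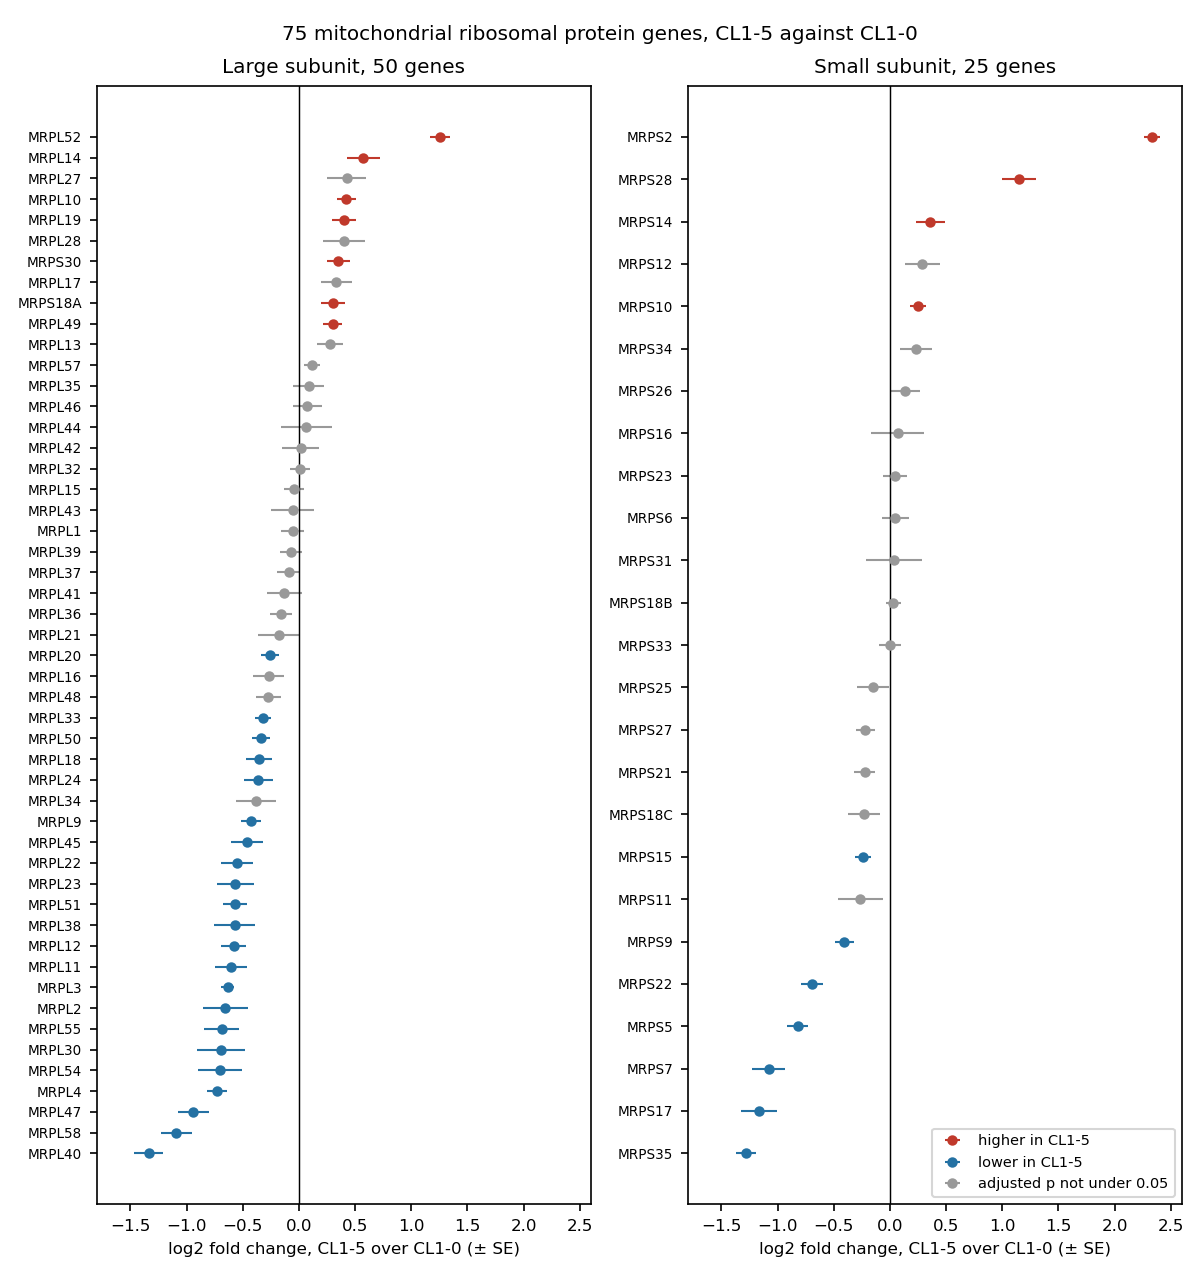
Points are the log2 fold changes (CL1-5 over CL1-0) of 50 large-subunit and 25 small-subunit genes, with bars for the SE from limma, coloured by the call at an adjusted p of 0.05. MRPS2 stands furthest to the right at 2.33 and MRPL40 furthest to the left at -1.34.

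Among the genes for the large subunit, 7 of 50 were higher in CL1-5, 22 were lower and 21 were not called, with a median log2 fold change of -0.22. Among the small subunit genes, 4 of 25 were higher, 7 were lower and 14 were not called, with a median of 0.00. Without the block, 23.3% of all genes were higher and 28.3% lower, so the share of small-subunit genes that were lower (28%) was near the background, and the 44% called in either direction lay under the 51.6% of all genes. Of the large-subunit genes 14% were higher and 44% lower. MRPS30 and MRPS18A are counted with the large subunit, where structures of the mammalian mitochondrial ribosome place their proteins in spite of the names. With the repeat as a block, 11 large-subunit genes were higher and 27 lower, and 6 small-subunit genes were higher and 11 lower. Of all genes 28% were higher and 34.7% lower with the block, so the share of small-subunit genes that were lower then lay above the background. In the large subunit, 3 were higher without CL1-5 repeat 2 (18.6% of all genes) and 11 without CL1-5 repeat 3 (20.6%). Lower ones there numbered 14 without CL1-0 repeat 1 (24.5% of all genes) and 13 without CL1-0 repeat 2 (23.9%). In the small subunit, 2 were higher without CL1-5 repeat 1 (20.3% of all genes), CL1-5 repeat 2 (18.6%) or CL1-0 repeat 2 (21.1%). The difference between the subunits was not tested.

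Proteins with a bacterial counterpart accounted for 45 of the genes, by the common nomenclature of ribosomal proteins. Of these 7 were higher in CL1-5 (15.6%), 20 lower (44.4%) and 18 not called, with a median of -0.24. Among the 30 found only in mitochondrial ribosomes, 4 were higher (13.3%), 9 lower (30%) and 17 not called, with a median of -0.06. Of all genes 23.3% were higher and 28.3% lower, so the share of these 30 that were lower was near the background. Of the 10 such genes in the small subunit, 2 were lower (MRPS35 and MRPS22), none was higher and 8 were not called by limma. With the block, 12 genes with a counterpart were higher and 27 lower, 5 without one were higher and 11 lower, and of those 10 small-subunit genes 1 was higher and 3 lower. Of all genes 28% were higher and 34.7% lower with the block. Higher genes with a counterpart numbered 4 without CL1-5 repeat 2 (18.6% of all genes) and 12 without CL1-5 repeat 3 (20.6%), and lower ones 13 without CL1-0 repeat 2 (23.9%). Among genes found only in mitochondrial ribosomes, 2 were higher without CL1-5 repeat 1 (20.3% of all genes) and 1 without CL1-5 repeat 2 (18.6%).

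MRPS2 rose the most in CL1-5. It encodes the counterpart of bacterial ribosomal protein S2, a small-subunit protein. Its signal was 1998, 2043 and 2161 on the CL1-5 arrays, against 402, 413 and 398 on the CL1-0 arrays. The CL1-5 arrays were all about 5 times as bright, and the spread within a line was small beside that gap. The means were 2067 ± 83.9 in CL1-5 and 404 ± 7.99 in CL1-0 (SD, n = 3 each), a 5.04-fold difference with a log2 fold change of 2.33 ± 0.07 (SE, limma, adjusted p = 2.24e-08). It was called in each of the 19 settings tried, with log2 fold changes of 2.29 to 2.36.

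MRPL52, a large-subunit protein with no bacterial counterpart, came second. Its signal was 3740.4, 3917 and 3243 on the CL1-5 arrays, against 1569, 1575 and 1408 on the CL1-0 arrays. No array of one line reached the range of the other, and the log2 fold change was 1.25 ± 0.09 (SE, limma, adjusted p = 4.68e-06). A second, dimmer probe set for MRPL52 gave 137, 117 and 175 on the CL1-5 arrays, against 61.4, 51.2 and 80.2 on the CL1-0 arrays, and a log2 fold change of 1.08 ± 0.19 in the fit over probe sets. Both probe sets rose (adjusted p = 0.0023 for the second), and the second was brightest in repeat 3 of both lines.

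MRPS28, which is classed as the mitochondrial counterpart of bacterial S1, was the last of the 3 genes to pass 2-fold upward. Its signal was 1965, 1582 and 1363 on the CL1-5 arrays, against 826, 764 and 608 on the CL1-0 arrays. Repeat 3 was the dimmest in both lines and the lines did not overlap. The log2 fold change was 1.15 ± 0.15 (SE, limma, adjusted p = 2.40e-04).

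The other 8 called increases were smaller, between 0.25 and 0.57 on the log2 scale. MRPL14, at the face of the large subunit that meets the small one, had 2124, 1768 and 1579 on the CL1-5 arrays, against 1406, 1284 and 992 on the CL1-0 arrays, and a log2 fold change of 0.57 ± 0.15 (limma, adjusted p = 0.0103). MRPL10, which anchors the stalk that recruits translation factors, had 1224, 1218 and 1247 on the CL1-5 arrays, against 1006, 913 and 833 on the CL1-0 arrays, and a log2 fold change of 0.42 ± 0.09 (limma, adjusted p = 0.0029). The groups did not overlap for either gene, and neither call was lost when 1 array was left out.
MRPL19 (log2 fold change 0.40 ± 0.10, adjusted p = 0.0105) and MRPL49 (0.30 ± 0.08, adjusted p = 0.0151), both large-subunit proteins, were higher by limma, but without CL1-5 repeat 2 their adjusted p was 0.0513 and 0.0645. MRPS14, a small-subunit protein, was higher, with a log2 fold change of 0.36 ± 0.13 (limma, adjusted p = 0.0409). The adjusted p exceeded 0.05 when CL1-5 repeat 1 (0.132), CL1-5 repeat 2 (0.105), CL1-0 repeat 2 (0.0609) or CL1-0 repeat 3 (0.0824) was left out. MRPS18A was higher, with a log2 fold change of 0.30 ± 0.11 (limma, adjusted p = 0.0430), and this call held only when CL1-5 repeat 3 was the array left out, with adjusted p of 0.129 and 0.144 without CL1-5 repeats 1 and 2 and 0.0527, 0.0595 and 0.102 without CL1-0 repeats 1, 2 and 3. The lines did not overlap for any of these 4 genes. With the block the adjusted p was 6.75e-04 for MRPL19, 2.84e-04 for MRPL49, 1.02e-04 for MRPS14 and 2.76e-04 for MRPS18A (limma). The probe sets of MRPL19 differed, as described below. MRPS10, a small-subunit protein, had 1697, 1585 and 1534 on the CL1-5 arrays, against 1391, 1339 and 1316 on the CL1-0 arrays, apart, with a log2 fold change of 0.25 ± 0.07 (limma, adjusted p = 0.0179), but was not called without CL1-5 repeat 1, CL1-5 repeat 2 or CL1-0 repeat 2, with an adjusted p of up to 0.0740. It ranked below the 10 largest increases and is given to complete the 11. With the block its adjusted p was 5.95e-04 (limma). MRPS30, the remaining increase, is described with the genes whose probe sets differ.

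MRPL40 fell the most in CL1-5. It is a large-subunit protein of mitochondrial ribosomes, and its gene lies in the chromosome 22 region deleted in DiGeorge syndrome. Its signal was 952, 889 and 793 on the CL1-5 arrays, against 2561, 2337 and 1836 on the CL1-0 arrays. Each CL1-5 array lay under the lowest CL1-0 array, itself repeat 3. The means were 878 ± 79.7 in CL1-5 and 2245 ± 371 in CL1-0 (SD, n = 3 each), 2.53-fold lower in CL1-5 (log2 fold change -1.34 ± 0.13, SE, limma, adjusted p = 2.94e-05).

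MRPS35, a small-subunit protein with no bacterial counterpart, fell nearly as much. Its signal was 740.3, 714 and 691 on the CL1-5 arrays, against 1919, 1749 and 1596 on the CL1-0 arrays. The 3 CL1-5 arrays lay close together, and the log2 fold change was -1.28 ± 0.09 (SE, limma, adjusted p = 3.26e-06).

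MRPS17, MRPL58 and MRPS7 also fell past 2-fold. MRPS17, a counterpart of the bacterial rRNA-binding protein S17, had 615, 626 and 452 on the CL1-5 arrays, against 1426, 1358 and 1033 on the CL1-0 arrays, and a log2 fold change of -1.16 ± 0.16 (limma, adjusted p = 2.74e-04). MRPL58, also called ICT1, is a peptidyl-tRNA hydrolase that is built into the large subunit and can release stalled chains. It had 611, 557 and 473 on the CL1-5 arrays, against 1282, 1282 and 963 on the CL1-0 arrays, with a log2 fold change of -1.09 ± 0.14 (limma, adjusted p = 1.72e-04). MRPS7, a head protein of the small subunit, had 645, 593 and 519 on the CL1-5 arrays, against 1453, 1346 and 979.8 on the CL1-0 arrays, with a log2 fold change of -1.08 ± 0.15 (limma, adjusted p = 3.08e-04). The lines were apart for all 3 genes, and these 5 decreases past 2-fold were called in each of the 19 settings.

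**Figure D3:**
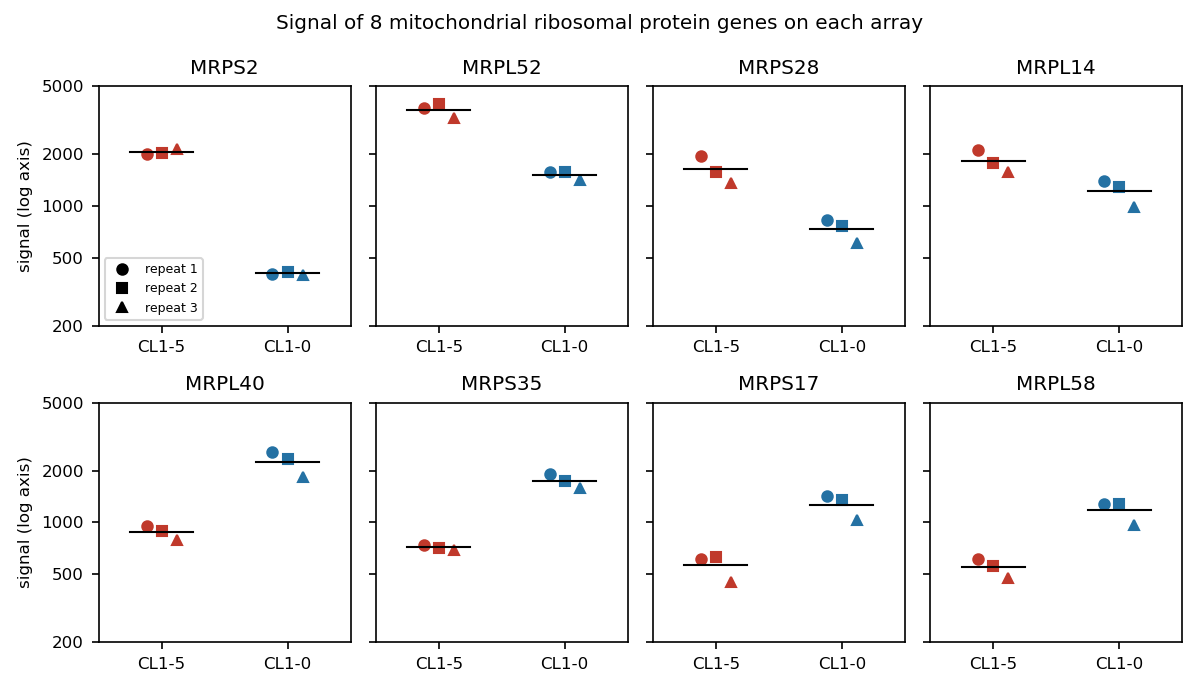
Signal on each array, on a log axis, for the 4 largest called increases (top) and 4 of the largest decreases (bottom), with CL1-5 on the left of each panel, CL1-0 on the right and a bar at the mean of 3 arrays. MRPS2 lies at 1998 to 2161 in CL1-5, above 398 to 413 in CL1-0, and MRPL40 lies at 793 to 952 in CL1-5, below 1836 to 2561 in CL1-0.

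The next 3 decreases by size were those of MRPL47, MRPS5 and MRPL4. MRPL47, the counterpart of L29 near the tunnel exit, had 1586, 1326 and 1148 on the CL1-5 arrays, against 2889, 2709 and 2199.6 on the CL1-0 arrays, a log2 fold change of -0.94 ± 0.14 (limma, adjusted p = 4.16e-04). MRPS5, the counterpart of a bacterial protein that bears on decoding accuracy, had 629, 703 and 686 on the CL1-5 arrays, against 1251, 1259 and 1079.5 on the CL1-0 arrays, a log2 fold change of -0.82 ± 0.09 (limma, adjusted p = 7.19e-05). MRPL4, which lines the tunnel, had 556, 617 and 661 on the CL1-5 arrays, against 1014, 1068 and 972 on the CL1-0 arrays, a log2 fold change of -0.73 ± 0.09 (limma, adjusted p = 1.39e-04). All 3 were lower on each CL1-5 array than on any CL1-0 array.
MRPL54 (-0.70 ± 0.20, limma, adjusted p = 0.0156) and MRPL30 (-0.69 ± 0.21, adjusted p = 0.0216) were also lower and apart. With CL1-0 repeat 1 left out the adjusted p was 0.0613 for MRPL54 and 0.0818 for MRPL30, and with CL1-0 repeat 2 left out it was 0.0583 for MRPL54 and 0.0741 for MRPL30. With all arrays and the block it was 1.46e-07 for MRPL54 and 3.13e-06 for MRPL30 (limma).

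Apart from MRPL3 and MRPS15, which are described with the brightest genes, 17 more genes were lower, with log2 fold changes from -0.69 for MRPS22 to -0.26 for MRPL20. They were MRPS22, MRPL55, MRPL2, MRPL11, MRPL12, MRPL38, MRPL51, MRPL23, MRPL22, MRPL45, MRPL9, MRPS9, MRPL24, MRPL18, MRPL50, MRPL33 and MRPL20. MRPL51 has 1 probe set, which bears the suffix x. A second, dimmer probe set of MRPL55 was not called, with a log2 fold change of 0.10 ± 0.09 in the fit over probe sets. MRPL12 and MRPL45 are described here by choice after their values were seen. MRPL12 is the stalk protein that recruits translation factors, and it was lower (-0.58) where its anchor MRPL10 was higher (0.42). MRPL45, which helps hold the ribosome at the inner membrane, had 512, 454 and 399.7 on the CL1-5 arrays, against 756, 622 and 522 on the CL1-0 arrays, a log2 fold change of -0.46 ± 0.15 (limma, adjusted p = 0.0256). Of the 17, MRPL2, MRPL38, MRPL23, MRPL45, MRPL24, MRPL18 and MRPL20 (7 genes) were not called when at least 1 array was left out, their highest adjusted p lying between 0.0698 and 0.148, and the other 10 were called whichever array was left out. The arrays of the lines overlapped for MRPL2, MRPL38 and MRPL24 and for no other of these genes. With the block all 17 were lower, MRPL45 with an adjusted p of 2.67e-05 (limma).

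The 3 genes with the highest mean level were MRPS15, MRPS18B and MRPL3, and they differed in outcome. MRPL3, a protein close to the peptidyl transferase centre, had 2382, 2312 and 2309.6 on the CL1-5 arrays, against 3694, 3577 and 3617 on the CL1-0 arrays. Its repeats were nearly level within each line, and the log2 fold change was -0.63 ± 0.06 (limma, adjusted p = 2.73e-05). MRPS18B had 2982, 3161 and 3035 on the CL1-5 arrays, against 3029, 2874 and 3083 on the CL1-0 arrays, overlapping lines with a log2 fold change of 0.03 ± 0.06 (limma, adjusted p = 0.728). MRPS15 had 2944, 2941 and 2774 on the CL1-5 arrays, against 3710.1, 3314 and 3225 on the CL1-0 arrays, a log2 fold change of -0.24 ± 0.07 (limma, adjusted p = 0.0237). The adjusted p of MRPS15 exceeded 0.05 when CL1-5 repeat 2 (0.0593), CL1-5 repeat 3 (0.0693), CL1-0 repeat 1 (0.0857) or CL1-0 repeat 2 (0.0523) was left out. With all arrays and the block it was 6.00e-04 (limma).

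Of the 35 genes not called, 16 lay within 0.1 of 0 on the log2 fold change scale, and the others reached from -0.38 for MRPL34 to 0.42 for MRPL27. MRPS33, a small-subunit protein picked after its values were seen, was the closest to level, with 925, 813 and 830.1 on the CL1-5 arrays, against 931, 893 and 751 on the CL1-0 arrays. Called neither in this fit nor with the block were 20 genes: MRPL1, MRPL15, MRPL32, MRPL35, MRPL37, MRPL39, MRPL41, MRPL42, MRPL43, MRPL44, MRPL46, MRPL57, MRPS6, MRPS16, MRPS18B, MRPS23, MRPS25, MRPS26, MRPS31 and MRPS33. A missed threshold does not show that these genes were alike in the lines: the typical SE of a member's log2 fold change was 0.13, against 0.11 over all genes. For MRPL35 a brighter probe set with suffix x was passed over, with mean signals of 948 in CL1-5 and 698 in CL1-0. That probe set was called higher, with a log2 fold change of 0.44 ± 0.15 (limma over probe sets, adjusted p = 0.0486).

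Different probe sets for a gene did not always give the same call. In the fit over all 28152 probe sets that passed, 12 member probe sets were higher and 43 lower of 133, where 21.2% of all probe sets were higher and 25.6% lower (46.9% called in all). With the block, 26 were higher and 56 lower, where 27.4% and 33.6% of all probe sets were. The higher ones numbered 7 without CL1-5 repeat 1 (17.4% of all probe sets) and likewise without CL1-5 repeat 2 (15.9%), and 20 without CL1-5 repeat 3 (18.5%). Of 32 genes with over 1 probe set passing, 3 had all of them called the same way (MRPL9, MRPS22 and MRPL52), 17 had some called in 1 direction and others not called, and 11 had none called. Probe sets of 1 gene share a target and are not replicates.

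Without the block, MRPS30 alone had probe sets called in opposite directions. The brightest, used for the gene, had 1455, 1417 and 1252 on the CL1-5 arrays, against 1156, 1131 and 946 on the CL1-0 arrays, and a log2 fold change of 0.35 ± 0.10 (limma over probe sets, adjusted p = 0.0252). A dimmer one had 112, 112 and 151 on the CL1-5 arrays, against 196, 174 and 175 on the CL1-0 arrays, and a log2 fold change of -0.53 ± 0.14 (adjusted p = 0.0140). The remaining one had a log2 fold change of 0.05 ± 0.11 and was not called. The direction for MRPS30 thus depends on the probe set, and its mean over the 3 was -0.042 (limma, adjusted p = 0.704). With the brightest probe set in the fit over genes it was 0.35 ± 0.10 (adjusted p = 0.0174). That adjusted p was 0.0638 with CL1-5 repeat 1 left out and 0.0684 with CL1-5 repeat 2 left out. With the block, MRPL19 also had probe sets called in opposite directions (limma over probe sets). The one used for the gene was higher at 0.40 (adjusted p = 8.62e-04), and a dim one was lower at -0.39 (adjusted p = 0.0058). The mean over the probe sets of MRPL19 was 0.077 and was not called without the block.

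MRPL42, a large-subunit protein, had the widest range among its probe sets. Its brightest had 1908, 1847 and 1344 on the CL1-5 arrays, against 1938, 1749 and 1356 on the CL1-0 arrays, and a second had 250.4, 249 and 242 on the CL1-5 arrays, against 226, 245 and 274 on the CL1-0 arrays, and neither was called. Its remaining, dim probe set had 27.6, 34.2 and 42.0 on the CL1-5 arrays, against 117, 102 and 155 on the CL1-0 arrays, a log2 fold change of -1.66 ± 0.18 (limma over probe sets, adjusted p = 1.90e-04). MRPS16 showed the same split, with 0.07 ± 0.25 for the probe set used and -0.70 ± 0.10 for a dimmer one called lower (adjusted p = 5.69e-04). All 4 probe sets for MRPS22, a small-subunit protein, were lower, from -0.69 to -0.58, but all are of the kind the platform marks with suffix x as likely to cross-hybridise. MRPL42, MRPS16 and MRPS22 were singled out after their values were seen.

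**Figure D4:**
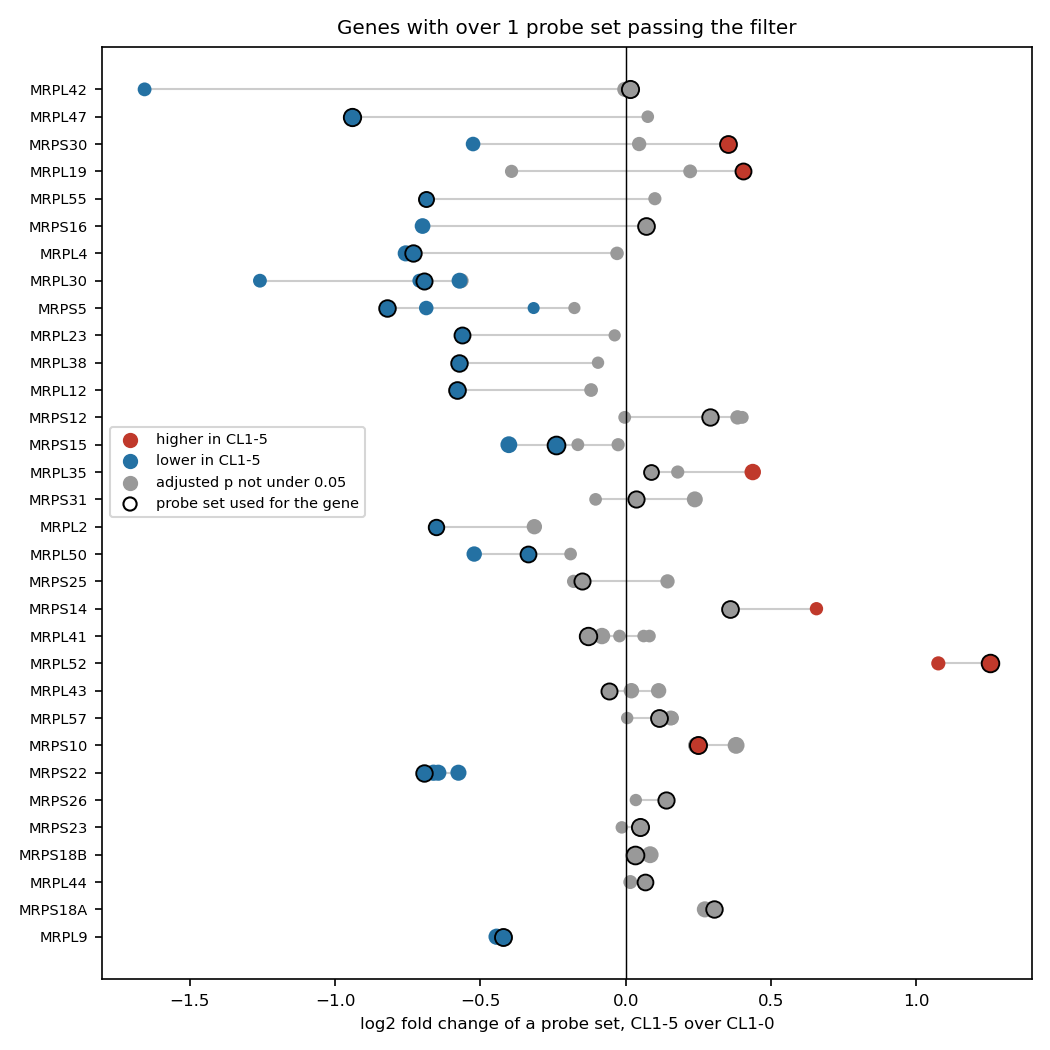
Log2 fold changes (CL1-5 over CL1-0) of the probe sets of 32 genes with over 1 probe set passing the filter, coloured by the call in the fit over probe sets, with a black ring on the one used for the gene and point size growing with the log signal. MRPS30 has a probe set on each side of 0 that was called, and MRPL42 spans 0.01 to -1.66.

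Proteins of the same ribosome under other names did not move as 1 group. Of 4 such genes, CHCHD1, a small-subunit protein, was higher in CL1-5 with 1155, 1047 and 965 on the CL1-5 arrays, against 516, 470.1 and 376 on the CL1-0 arrays, and a log2 fold change of 1.21 ± 0.13 (limma, adjusted p = 5.05e-05). PTCD3, a small-subunit protein of the pentatricopeptide repeat family, was lower, with -0.35 ± 0.10 on that scale (adjusted p = 0.0131). Its adjusted p exceeded 0.05 when CL1-5 repeat 2 (0.0539), CL1-0 repeat 1 (0.0503) or CL1-0 repeat 2 (0.05002) was left out. DAP3, with a log2 fold change of -0.13 ± 0.08, and GADD45GIP1, with -0.34 ± 0.24, were not called. With the block 3 of the 4 were lower (34.7% of all genes), and without CL1-0 repeat 3 there were 2 (27.9%).

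Factors that build the mitochondrial ribosome or modify its RNA were lower for 15 of 27 genes tested and higher for 3 (18 and 4 with the block), where 28.3% of all genes were lower and 23.3% higher, with a median log2 fold change of -0.31. YBEY, an endoribonuclease, was lower, with a log2 fold change of -1.46 ± 0.11 (limma, adjusted p = 5.82e-06) and TRMT61B, a methyltransferase, was lower with -1.20 ± 0.09 (adjusted p = 8.43e-06). MTERF3, a factor tied to mitochondrial transcription and ribosome assembly, was higher, with 758, 731 and 713 on the CL1-5 arrays, against 286, 208 and 299 on the CL1-0 arrays, and a log2 fold change of 1.47 ± 0.13 (adjusted p = 2.21e-05).

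Translation factors of the organelle were lower for 8 of 14 genes (57.1%) and higher for 1 (7.14%), with a median of -0.38. Among all genes 28.3% were lower and 23.3% higher. GUF1, the mitochondrial counterpart of the elongation factor LepA, fell the most, with 99.1, 119 and 139 on the CL1-5 arrays, against 757, 735 and 803 on the CL1-0 arrays, a log2 fold change of -2.63 ± 0.12 (limma, adjusted p = 2.91e-07). LRPPRC, which stabilises mitochondrial mRNAs, had 1277, 1370.4 and 1326 on the CL1-5 arrays, against 3203, 3496 and 3652 on the CL1-0 arrays, a log2 fold change of -1.38 ± 0.07 (adjusted p = 7.70e-07). MTIF2, the initiation factor, was lower, with -1.15 ± 0.07 on the log2 scale (adjusted p = 2.06e-06). The single higher factor was not called without CL1-5 repeat 2 or CL1-5 repeat 3, which left 0 by limma, and with the block 2 were higher and 9 lower.

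Aminoacyl-tRNA synthetases and the related amidotransferase split more evenly, with 3 higher (16.7%), 4 lower (22.2%) and 11 not called of 18. The 38.9% called lay under the 51.6% of all genes, of which 23.3% were higher and 28.3% lower. With the block 5 were higher and 7 lower. SARS2 (serine) was higher, with a log2 fold change of 0.72 ± 0.09 (limma, adjusted p = 1.53e-04), and IARS2 (isoleucine) was lower with -0.71 ± 0.07 (adjusted p = 4.62e-05), as was QRSL1, a subunit of the amidotransferase, with -1.02 ± 0.10 (adjusted p = 2.65e-05). Genes for mitochondrial DNA replication, transcription and RNA processing were higher for 3 (17.6%) and lower for 5 (29.4%) of 17 (4 and 7 with the block). Without the block their lower share was thus near that of all genes. PNPT1, a polynucleotide phosphorylase, was higher, with a log2 fold change of 1.52 ± 0.07 (adjusted p = 2.40e-07), and MTPAP, the poly(A) polymerase, and SSBP1, the single-stranded DNA binding protein, were lower, MTPAP with -1.10 ± 0.14 (adjusted p = 1.96e-04) and SSBP1 with -0.93 ± 0.07 (adjusted p = 5.12e-06).

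Genes used as markers of mitochondrial content were lower for 10 of 16 (62.5%) and higher for 1 (6.25%), with a median of -0.37. Among all genes 28.3% were lower and 23.3% higher. The single higher call was lost without CL1-5 repeat 2 or CL1-0 repeat 2, while 3 were higher and 11 lower with the block. The lower ones included VDAC3, an outer membrane channel (-1.54 ± 0.08, limma, adjusted p = 3.93e-07), CS, citrate synthase (-1.02 ± 0.12, adjusted p = 9.56e-05) and HSPD1, the matrix chaperonin (-0.65 ± 0.09, adjusted p = 2.27e-04). Of 8 nuclear regulators of mitochondrial genes, MYC was higher with 3816, 3746 and 3230.3 on the CL1-5 arrays, against 1952, 1925 and 1343 on the CL1-0 arrays, a log2 fold change of 1.06 ± 0.14 (limma, adjusted p = 2.67e-04). PPRC1, a coactivator, was lower, with a log2 fold change of -0.58 ± 0.18 (adjusted p = 0.0235). The 25% of the 8 that were called lay under the 51.6% of all genes. With the block 2 of the 8 were higher and 1 lower. The adjusted p of PPRC1 exceeded 0.05 when CL1-5 repeat 1 (0.0673), CL1-5 repeat 2 (0.0710), CL1-0 repeat 1 (0.0624) or CL1-0 repeat 3 (0.0613) was left out.

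Most measured genes for the products of the mitochondrial ribosome were lower too. Of 7 mitochondrially encoded protein genes on the array, 5 were lower in CL1-5 and none was higher (limma), with a median of -0.65 on the log2 scale. With the block 7 of 7 were lower. Among all genes 28.3% were lower and 23.3% higher, and with the block 34.7% and 28%. Respiratory chain and ATP synthase subunits encoded in the nucleus were lower for 35 of 69 (50.7%) and higher for 3 (4.35%), with a median of -0.28. With the block 49 were lower and 10 higher. Cytosolic ribosomal proteins, the members' counterparts outside the organelle, were lower for 19 of 59 (32.2%) and higher for 6 (10.2%), with a median of -0.08. Without the block their lower share was thus near the background. With the block 27 were lower and 6 higher. Higher ones numbered 3 without CL1-5 repeat 2 (18.6% of all genes), CL1-0 repeat 1 (22.1%) or CL1-0 repeat 2 (21.1%). These lists are set side by side as counts, and no difference between them and the mitochondrial ribosomal protein genes was tested.

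**Figure D5:**
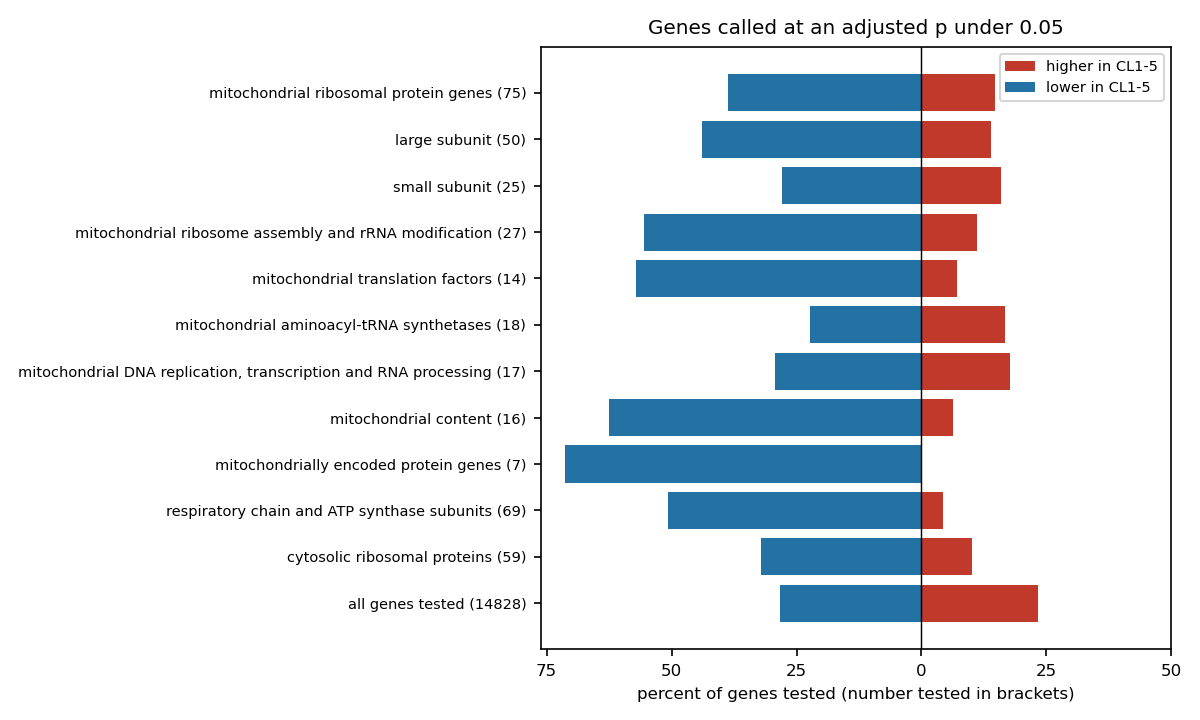
Percent of the genes tested in each list that were called lower (bars to the left of 0) or higher (bars to the right) in CL1-5 at an adjusted p under 0.05, with the number tested in brackets. Mitochondrial ribosomal protein genes were lower for 38.7% and higher for 14.7%, against 28.3% lower and 23.3% higher over all genes tested.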

How the data were processed

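Total RNA of 3 CL1-5 and 3 CL1-0 samples was measured on 1 kind of Affymetrix array. The authors deposited 1 linear intensity value for each probe set and array, for which the submitters' processing notes name MAS5. Which version was run, and what followed, is not given in the sources used here. No detection call entered. Groups and repeat numbers came from the sample titles.

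Of 54675 probe sets, 41091 had 1 gene symbol in the platform annotation, 1801 several, 11721 none and 62 were controls. Probe sets with several symbols were left out, among them 3 that list an MRPL or MRPS symbol. Symbols were updated through gene identifiers to RefSeq, where 41037 matched. The scale was log2(signal + 6.85), where 6.85 is the 10th percentile over the whole table, so folds of dim genes are understated. A probe set was tested where it exceeded its array's 40th percentile on at least 3 of 6 arrays. The passing probe set with the highest mean stood for its gene, without suffix x where another passed. This left 14828 genes. The test was that of limma 3.58.1 in R 4.3.3 (lmFit, eBayes with a trend), Benjamini-Hochberg adjustment and a threshold of 0.05. Lists and promoters were handled in Python 3.11.15 with pandas 2.3.3. The number of arrays, 3 a line, limits the precision. The steps were also run on simulated data with independent noise on each array, so the shared deviations of same-numbered arrays were not part of it.

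The members and lists were chosen with earlier results of these data known. Named members were the 10 largest increases and the 10 largest decreases among called genes whose lines do not overlap, each gene with probe sets called in opposite directions and the 3 with the highest mean level. From the other lists up to 3 called genes with the largest change were named. Over all genes, arrays of the same number in both lines deviated together from their own line's mean, with correlations of 0.475, 0.280 and 0.649 for repeats 1, 2 and 3. The labels do not say what a number marks, so the main comparison was fitted without the repeat as a block. Because of these correlations it was also fitted with the block, and those counts are printed beside the others. If the numbers do mark pairs, the main fit leaves that pairing out. Each SE and adjusted p is without the block unless the block is named, as are the fits with 1 array left out. Leaving out 1 array also breaks any such pair, so a call lost there does not show that a difference rests on 1 array. Alternatives changed the constant, the filter, the scaling, the trend, array weights, the block, the threshold, the probe set of a gene and the arrays used. For the counts of the subunits, of the classes of protein and of the other lists they were added after seeing the data.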

Additional observations from a re-analysis of the deposited data

How the results depend on the processing

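In the 19 settings tried, 22 of the 40 called members kept their call throughout (4 higher and 18 lower), and 24 kept it whichever single array was left out. Of 798 values of named genes, 751 kept direction and side of the threshold, 45 fell short of it, 1 passed it newly (MRPS18B with array weights, at 0.11) and 1 changed sign, MRPS30, which was -0.042 with the mean of its probe sets. Higher members numbered 11, where 23.3% of all genes were higher. They numbered 18 with array weights (30.8% of all genes), 17 with the repeat as a block for pairing (28%) and 17 with repeats 1 and 2 alone (24%). There were 7 with the mean of a gene's probe sets (23.4%) and 4 at a threshold of 0.01 (18.4%). When 1 array was left out there were from 5 to 16 (18.6% to 23.2% of all genes). Lower members numbered 29 (28.3% of all genes), and 18 at a threshold of 0.01 (22%), and from 19 to 34 when 1 array was left out (23.9% to 28%). Higher member probe sets numbered 12, and 30 with array weights, 26 with the block, 22 with repeats 1 and 2 alone and 6 at 0.01, and from 7 to 20 when 1 array was left out. Over all 28152 probe sets the higher ones numbered 5976, and 8145 with array weights, 7706 with the block and 4505 at 0.01. The members' median of -0.16 ran from -0.28 to -0.054 when 1 array was left out and was -0.18 after quantile normalization. The block ended no call of a member. The added constant, the filter and quantile normalization left the higher members at 11 and the lower ones at 29 to 31. The causes of these changes were not tested, beyond a stricter threshold giving fewer calls by construction.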

Other observations

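The nearest tested protein-coding genes on either side of the most changed members were read after the values were seen. MRPL52 lies between SLC7A7, an amino acid transporter subunit with mean signals of 1337 in CL1-5 and 56.3 in CL1-0 and a log2 fold change of 4.42, and MMP14, a membrane matrix metalloproteinase with 1069.8 in CL1-5 and 73.8 in CL1-0 and a log2 fold change of 3.66. All 3 were higher in CL1-5. MRPS28 lies between HEY1, at 2.42, and TPD52, at 0.49, both higher too. MRPS2 was higher by 2.33, while its neighbours PIERCE1 and LCN1 were higher by 0.28 and 0.36. The largest decreases had neighbours that went the other way or were not called: next to MRPL40, C22orf39 was higher by 0.46 and HIRA, at 0.21, was not called, and next to MRPS35, PPFIBP1 and KLHL42 were higher by 1.05 and 0.36. Next to MRPS17, VOPP1 was higher by 0.37 and NIPSNAP2, at 0.13, was not called. Calls are limma's at an adjusted p under 0.05. The array gives no copy number, and nothing here tests what neighbours share.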
